A study of Mus musculus with 6 samples.

Results

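Diet-cycled and low-fat epididymal fat were compared in 4 of the 6 libraries of the series, 2 libraries of group F-H-L and 2 of group F-L, chosen by their labelled group and by the count columns across all genes. All mice were wild-type C57BL/6 and 35 weeks old, and all diets began at 6 weeks of age. F-L is read as continuous feeding of a low-fat diet with 10% of its calories from fat. F-H-L is read as 9 weeks on a high-fat diet with 60% of its calories from fat, and then 10 cycles, each with 1 week on the low-fat diet and 1 week back on the high-fat diet, so that a cycle as described closed on the high-fat diet. The codes are tied to these diets by their letters alone. The remaining 2 libraries, F-H, read as continuous high-fat feeding, entered the model only to share the estimate of the spread between libraries. The labels do not state that the libraries of a group came from separate mice, so the tests below measure how much libraries vary, and that variation may be technical.

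Epididymal white adipose tissue is the visceral depot that lies along the epididymis and testis of the mouse. Its fat cells store triglyceride, release fatty acids on demand and secrete hormones such as leptin and adiponectin, inside a basement membrane and a collagen matrix that includes type VI collagen. When fat cells enlarge or die in obesity, macrophages gather around them and take up lipid, and lipid-associated macrophages are known by genes such as Trem2, Spp1 and Itgax. The depot is dissected next to the reproductive tract, so germ cell and epididymal transcripts in a library are a measure of what else the sample held.

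The libraries held 41091012 and 48305365 counts in F-L and 45308438 and 44090618 in F-H-L. Levels below are CPM, counts scaled to the TMM-adjusted library size, which are not divided by gene length and so compare libraries, not genes. The F-L libraries were unlike each other: across genes, which are not independent replicates, their log2 levels correlated at r = 0.815, against 0.97 in F-H-L. All 22 fat cell markers were detected in each of the 4 libraries, but their summed level was 4109 CPM in F-L replicate 1 and 33206 in F-L replicate 2, against 56942 and 66108 in F-H-L. The 22 epididymis markers took 1.83% of all counts (95% Wilson interval 1.83 to 1.84, counting error only) in F-L replicate 1, 0.411% (0.409 to 0.413) in F-L replicate 2, and 0.173% and 0.148% in the diet-cycled libraries. Markers of testis germ cells, 18 in number, took 0.0883% in F-L replicate 1, 0.852% in F-L replicate 2, and 0.0191% and 0.0192% in F-H-L. None of these tract markers was at a count of 0 in any of the 4 libraries. F-L replicate 1 was thus the epididymis-rich and F-L replicate 2 the testis-rich library, and both held more of each tract list than either F-H-L library. In bulk tissue, fewer cells of a type and less RNA per cell cannot be told apart, and this applies to every value that follows.

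**Figure D1:**
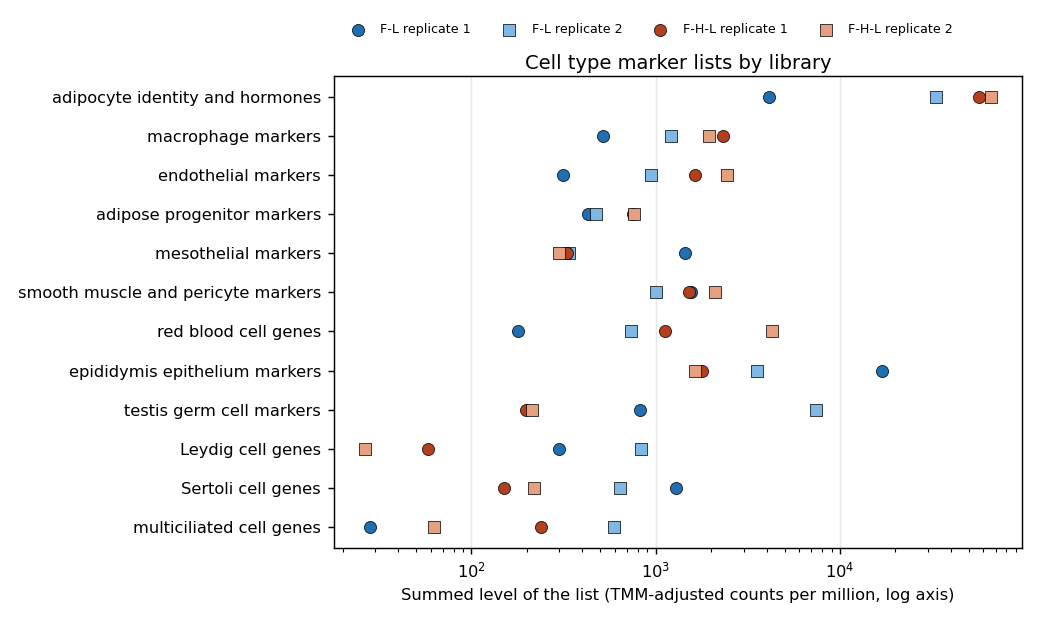
Summed level of each cell type marker list (TMM-adjusted CPM, log axis) in the 2 F-L libraries (blue) and the 2 F-H-L libraries (red), 1 point per library. Fat cell markers were low in F-L replicate 1 (4109 CPM), and epididymis and testis markers were higher in both F-L libraries than in both F-H-L libraries.

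With both F-L libraries in 1 group, edgeR's quasi-likelihood test called 0 of 22289 genes at a Benjamini-Hochberg adjusted p under 0.05 (0% called), and the smallest adjusted p was 0.274. At an unadjusted p under 0.05, 1855 genes were higher in F-H-L (8.32% of those tested) and 2120 were lower (9.51%). DESeq2 called 2444 genes on the same counts, 590 of them higher and 1854 lower. F-H-L was therefore set against each F-L library alone, in fits of 5 libraries. The lone F-L library was assumed to vary like the F-H and F-H-L groups, so the wide gap between the F-L libraries did not enter the error. Gaps between the F-H libraries did enter it, and the epididymis markers had 151 and 23702 counts in those libraries. A gene called the same way against each F-L library is separated from both by that choice, so groups that do not overlap are no further support. With 2 libraries a group, genes that were not called can also separate by chance. The share of all genes that did so was not counted.

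Against the epididymis-rich F-L replicate 1, 2236 genes were higher in F-H-L (9.18% of 24350 tested) and 1272 lower (5.22%). Against the testis-rich F-L replicate 2, 180 were higher (0.678% of 26552 tested) and 1904 lower (7.17%). What differed from both came to 268 of the 23296 genes tested in both fits: 162 were higher in F-H-L against each F-L library (0.695%) and 106 were lower against each (0.455%). The 162 rises made up 7.25% of the rises against F-L replicate 1 and 90% of those against F-L replicate 2. The 106 falls made up 8.33% and 5.57% of the falls. Both fits use the same F-H-L libraries, so the 268 calls are not an overlap of independent results, and no gene was called when either F-H-L library was left out, which leaves 1 library in each arm. The genes nearest the threshold were Iah1, Gpt and Gdf10 on the called side, with a larger adjusted p of 0.0494 to 0.0495 in edgeR, and Pnpla3, Sardh and 1810058I24Rik on the other side, at 0.05.

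The 162 genes that were higher had a median log2 difference of 2.70 against F-L replicate 1 and 1.39 against F-L replicate 2, where all genes tested had medians of -0.03 and -0.04. Of these genes 159 were protein coding, and 69 had similar levels in the F-L libraries (within 2-fold), while 93 were more than 2-fold higher in F-L replicate 2 than in F-L replicate 1 and none was the other way round. Of the 106 genes that were lower, 54 had similar levels in the F-L libraries, 37 were higher in F-L replicate 2 and 15 higher in F-L replicate 1. For comparison, 46% of all genes tested in both fits were within 2-fold between the F-L libraries. The sign of a rise depends on what the libraries are scaled to. Scaling each library to its fat cell markers moved most genes down, so falls called again under that scaling are no check of the falls. A rise smaller than that shift turns negative through it, so the changes of sign given below are no check of the rises either. With median-ratio size factors in place of TMM the split was 114 higher and 132 lower, and 112 of the 162 rises and all 106 falls were called again. When each library was scaled to its fat cell markers the median of all genes moved to -3.94 against F-L replicate 1 and -0.84 against F-L replicate 2, and 6 of the 162 rises were still called (Mmp12, Pmepa1, Saa3, Spp1, Ubd and Wfdc21), with all 106 falls.

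**Figure D2:**
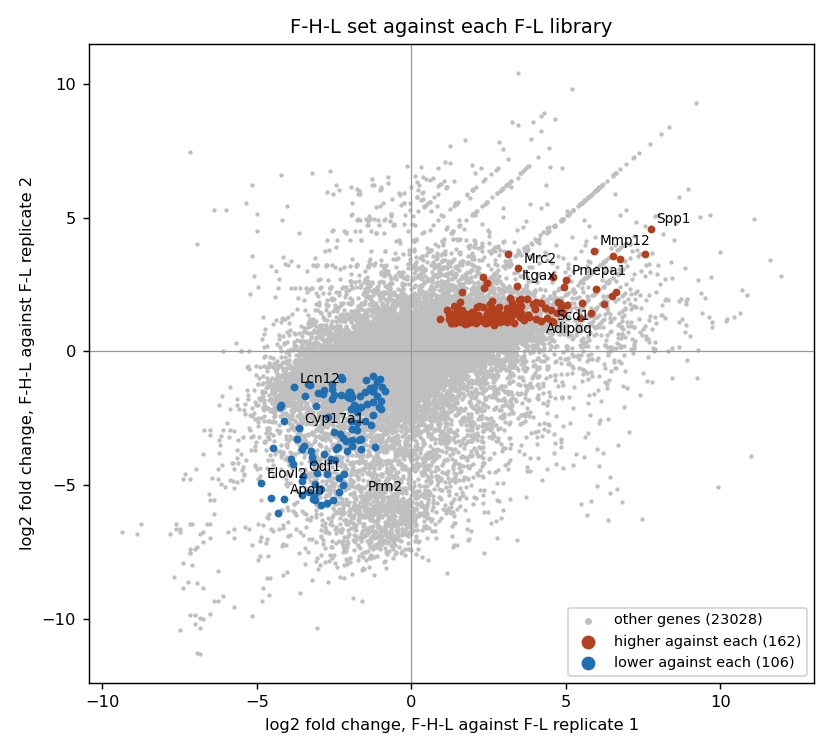
Log2 difference of F-H-L against F-L replicate 1 (horizontal axis) and against F-L replicate 2 (vertical axis), 1 point per gene tested in both fits. Red points are the 162 genes called higher and blue points the 106 called lower against each F-L library, and straight streaks of grey points are genes with few or no counts in the F-L libraries.

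The number of list members called in a fit, here and below, is to be read beside the share of all genes called in that fit, given above. Of the 37 gene lists examined, extracellular matrix held the most genes that were higher against each F-L library. Of 26 extracellular matrix genes tested, 23 were called higher and 0 lower against F-L replicate 1, 7 higher and 0 lower against F-L replicate 2, and 7 higher against both. The list had a median log2 difference of 2.77 against F-L replicate 1 and 1.15 against F-L replicate 2. In the fit to all libraries it was 1.79, and it changed sign, to -0.61, when libraries were scaled to fat cell markers. The median of all genes was -3.16 under that scaling. The 7 genes were Col1a1, Col4a2, Col5a1, Col6a1, Col6a2, Col6a3 and Col15a1. Fat cell markers were also higher in both F-H-L libraries than in both F-L libraries, and the part of the fat cell share in the matrix values was not tested.

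Col6a1, Col6a2 and Col6a3 encode the chains of type VI collagen, a filament-forming collagen abundant around fat cells. Col6a1 stood at 178 and 331 CPM in F-L and at 1086 and 1064 CPM in F-H-L. Its log2 difference was 2.62 ± 0.28 (SE) against F-L replicate 1 and 1.62 ± 0.25 against F-L replicate 2, with edgeR adjusted p of 0.00843 and 0.022. Both F-H-L libraries lay above both F-L libraries and close to each other. Col6a2 stood at 119 and 303 CPM in F-L and at 1147 and 1109 CPM in F-H-L, a log2 difference of 3.26 ± 0.29 and 1.82 ± 0.26 (adjusted p 0.00712 and 0.0176). Col6a3 stood at 35.9 and 102 CPM in F-L and at 304 and 242 CPM in F-H-L, a log2 difference of 2.95 ± 0.29 and 1.35 ± 0.26 (adjusted p 0.00783 and 0.042). All 3 genes were lowest in F-L replicate 1, the library with the lowest fat cell level, and the groups did not overlap. Scaled to fat cell markers, all 3 turned to small negative differences, -0.60 for Col6a1, -0.050 for Col6a2 and -0.39 for Col6a3 in the fit to all libraries.

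Col6a1 (chr10:76708792-76726044, minus strand) and Col6a2 (chr10:76595756-76623625, minus strand) lie near each other on the same strand, and Col6a3 lies on another chromosome (chr1:90766860-90843971, minus strand). Because these 3 genes were called together, their promoter windows are shown, each running from 250 bases before to 50 bases after the RefSeq gene start in GRCm38.p6, 5′ to 3′ on the gene's strand, with the GC box motif in capitals. The windows are chr10:76725995-76726294 for Col6a1, chr10:76623581-76623880 for Col6a2 and chr1:90843922-90844221 for Col6a3.
Col6a1: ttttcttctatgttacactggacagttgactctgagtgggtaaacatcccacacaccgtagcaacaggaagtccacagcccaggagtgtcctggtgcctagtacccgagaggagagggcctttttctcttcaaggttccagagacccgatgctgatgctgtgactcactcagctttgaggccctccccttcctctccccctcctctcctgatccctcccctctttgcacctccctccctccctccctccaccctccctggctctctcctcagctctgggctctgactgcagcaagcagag
Col6a2: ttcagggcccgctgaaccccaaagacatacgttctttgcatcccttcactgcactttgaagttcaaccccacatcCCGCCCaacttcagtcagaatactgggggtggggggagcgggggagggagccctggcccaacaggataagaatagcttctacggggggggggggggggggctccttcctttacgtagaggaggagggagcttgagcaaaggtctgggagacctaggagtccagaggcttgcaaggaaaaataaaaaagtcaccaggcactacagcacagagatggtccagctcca
Col6a3: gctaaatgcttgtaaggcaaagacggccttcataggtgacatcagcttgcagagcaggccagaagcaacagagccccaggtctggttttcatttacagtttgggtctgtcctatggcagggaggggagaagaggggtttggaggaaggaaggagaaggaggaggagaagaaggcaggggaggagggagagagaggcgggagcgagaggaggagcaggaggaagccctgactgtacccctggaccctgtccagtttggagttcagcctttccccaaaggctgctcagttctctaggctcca
The windows were searched on both strands for CCAAT, which 37.4% of all 32851 RefSeq promoter windows of this length hold, for TATAAA (13.6%) and for GGGCGG, the GC box (35.7%). Col6a2 held 1 GC box, on the opposite strand and 175 bases before the start, while Col6a1 and Col6a3 held none of these letters.

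The other collagens followed the same order of libraries. Col4a2 encodes a chain of basement membrane collagen and stood at 103 and 521 CPM in F-L and at 1628 and 1639 CPM in F-H-L, a log2 difference of 4.02 ± 0.32 and 1.57 ± 0.27 (edgeR adjusted p 0.00712 and 0.0291). Col1a1, a chain of fibrillar type I collagen, was nearly even in F-L at 216 and 252 CPM and stood at 605 and 613 CPM in F-H-L, a log2 difference of 1.52 ± 0.25 and 1.196 ± 0.24 (adjusted p 0.0198 and 0.043). Col5a1, a chain of the fibril-regulating type V collagen, had 49.9 and 157 CPM in F-L and 442 and 440 CPM in F-H-L. Col15a1, a basement membrane zone collagen, had 33.7 and 279 CPM in F-L and 716 and 687 CPM in F-H-L. In all 4 genes both F-H-L libraries were above both F-L libraries, and scaled to fat cell markers Col1a1 and Col5a1 changed sign (-1.60 and -0.23). Postn, a matrix protein of remodelling tissue, had 49.7 and 85.0 CPM in F-L and 304 and 261 CPM in F-H-L. It was called against F-L replicate 1 (adjusted p 0.0183) and missed the threshold against F-L replicate 2 (adjusted p 0.0593), and it changed sign under fat cell scaling (-0.66).

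Genes outside the list that handle collagen or basement membrane were also among the 162; the 5 named here were picked after their values had been seen. Serpinh1, the chaperone that folds procollagen, stood at 97.6 and 388 CPM in F-L and at 1266 and 973 CPM in F-H-L, a log2 difference of 3.55 ± 0.35 and 1.45 ± 0.30 (edgeR adjusted p 0.00755 and 0.0466). Plod1 and P3h1 hydroxylate collagen lysines and prolines. Plod1 had 22.9 and 64.3 CPM in F-L and 148 and 160 CPM in F-H-L, and P3h1 had 10.5 and 30.1 CPM against 65.6 and 65.8 CPM. Hspg2, the basement membrane proteoglycan perlecan, had 94.8 and 413 CPM in F-L and 1065 and 1052 CPM in F-H-L, and Nid2, the basement membrane linker nidogen 2, had 20.5 and 87.1 CPM against 360 and 296 CPM. In each of these genes F-L replicate 1 was the lowest library and the F-H-L libraries were the highest, and scaled to fat cell markers Plod1 (-0.58), P3h1 (-0.69) and Hspg2 (-0.037) changed sign.

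Mrc2 encodes Endo180, a receptor that takes up collagen for breakdown, and it ranked first of the 162 rises in the edgeR fit to all libraries, where its adjusted p was 0.274. It stood at 16.7 and 19.6 CPM in F-L and at 163 and 195 CPM in F-H-L. The log2 difference was 3.45 ± 0.31 against F-L replicate 1 and 3.11 ± 0.29 against F-L replicate 2 (edgeR adjusted p 0.00712 and 0.00559). The F-L libraries were almost level and both F-H-L libraries were far above them. Pmepa1, a membrane protein induced by TGF-beta that dampens its signalling, stood at 11.1 and 53.0 CPM in F-L and at 331 and 375 CPM in F-H-L, a log2 difference of 5.02 ± 0.51 and 2.66 ± 0.43 (adjusted p 0.00799 and 0.0252). Cilp, a secreted matrix protein, had 21.8 and 27.8 CPM in F-L and 104 and 83.3 CPM in F-H-L, with log2 differences of 2.12 ± 0.34 and 1.67 ± 0.32.

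Genes of lipid-associated macrophages came next by that count. Of 18 tested, 11 were called higher against F-L replicate 1, 7 against F-L replicate 2 and 6 against both, and 0 were called lower. The list median was 1.77 against F-L replicate 1 and 1.22 against F-L replicate 2, and in the fit to all libraries 1.54, or -1.34 when scaled to fat cell markers (all genes -3.16). The 6 genes were Fabp5, Itgax, Lgals3, Mmp12, Spp1 and Trem2. Of 20 general macrophage markers tested, 10 were called higher against F-L replicate 1 and 1, Itgax, against F-L replicate 2, with medians of 2.19 and 0.88, and the difference between these lists was not tested. The summed level of those 20 markers was 518 and 1206 CPM in F-L and 2322 and 1934 CPM in F-H-L, with no marker at 0.

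Spp1, the secreted phosphoprotein osteopontin, stood at 0.0901 and 0.770 CPM in F-L, or 4 and 43 counts, and at 15.3 and 23.9 CPM in F-H-L. Its log2 difference was 7.74 ± 0.77 against F-L replicate 1 and 4.59 ± 0.59 against F-L replicate 2 (edgeR adjusted p 0.00768 and 0.0132). Mmp12, macrophage elastase, stood at 0.541 and 2.25 CPM in F-L and at 43.8 and 20.6 CPM in F-H-L, a log2 difference of 5.92 ± 0.81 and 3.76 ± 0.69 (adjusted p 0.0126 and 0.0351). Both genes were low in F-L and higher in both F-H-L libraries, and they were among the 6 rises still called when libraries were scaled to fat cell markers. Itgax, the integrin CD11c that marks inflammatory fat macrophages and dendritic cells, stood at 2.00 and 3.63 CPM in F-L and at 20.9 and 21.0 CPM in F-H-L, a log2 difference of 3.41 ± 0.29 and 2.45 ± 0.27 (adjusted p 0.00712 and 0.0086). Trem2, the lipid-sensing receptor of these macrophages, stood at 7.57 and 5.87 CPM in F-L and at 25.1 and 19.1 CPM in F-H-L, a log2 difference of 1.57 ± 0.28 and 1.84 ± 0.28 (adjusted p 0.0234 and 0.0208). Lgals3, the galactoside-binding lectin galectin 3, had 80.7 and 71.0 CPM in F-L and 212 and 181 CPM in F-H-L. For Trem2 and Lgals3 the testis-rich library was the lower of the F-L libraries, unlike the collagens, and both changed sign when scaled to fat cell markers (-1.46 and -1.75).

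Fabp5, a fatty acid carrier of macrophages and other cells, had 13.5 and 97.6 CPM in F-L and 281 and 325 CPM in F-H-L, a log2 difference of 4.51 ± 0.31 and 1.55 ± 0.26 (edgeR adjusted p 0.00712 and 0.0265). Cd68, a lysosomal glycoprotein, had 11.7 and 24.4 CPM in F-L and 64.0 and 41.4 CPM in F-H-L, and its adjusted p was 0.0237 against F-L replicate 1 and 0.147 against F-L replicate 2. Tyrobp, the signalling adaptor that pairs with Trem2, had 12.8 and 19.5 CPM in F-L and 63.9 and 50.4 CPM in F-H-L, with adjusted p of 0.0263 and 0.0776. Adgre1, which encodes the F4/80 antigen, had 11.6 and 34.1 CPM in F-L and 75.4 and 43.8 CPM in F-H-L, with adjusted p of 0.0769 and 0.493. The groups did not overlap in Cd68, Tyrobp and Adgre1, which 2 libraries a group can show by chance, and none was called against F-L replicate 2. F-H-L replicate 2 lay close to F-L replicate 2 for Adgre1, and all 3 changed sign when scaled to fat cell markers.

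**Figure D3:**
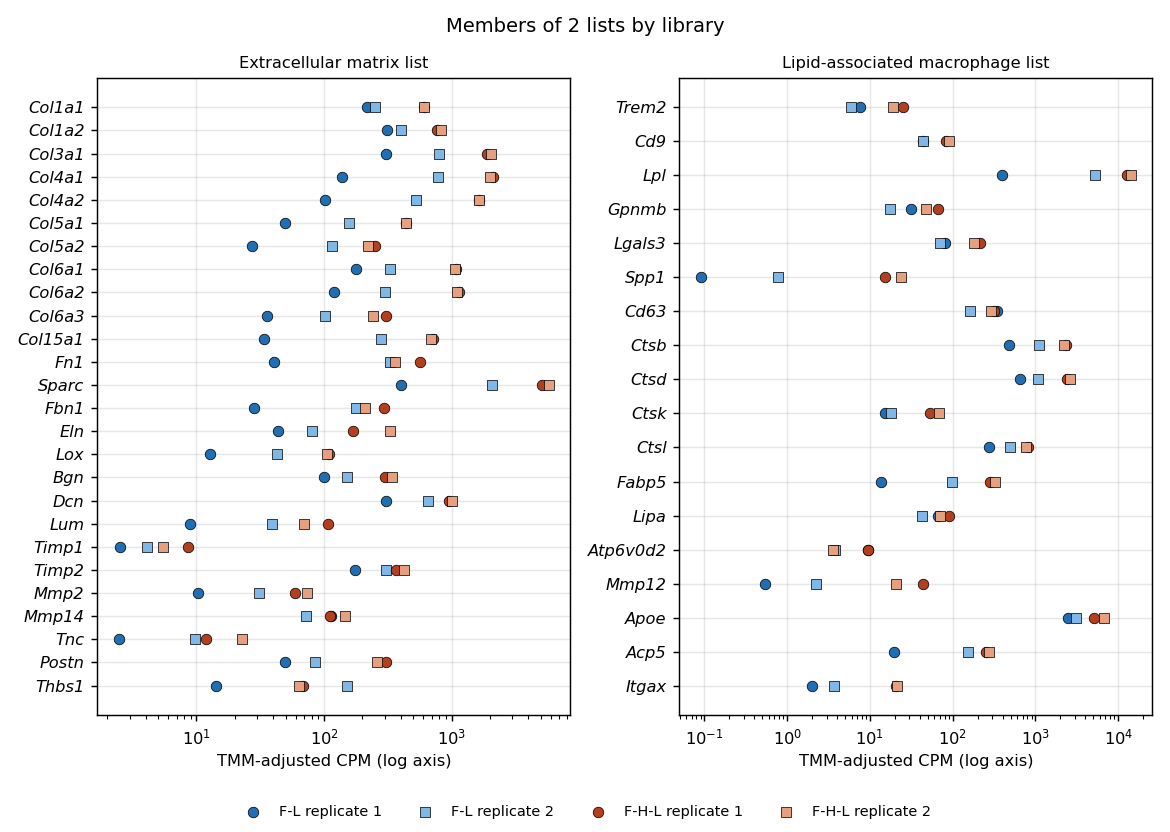
Level of each tested member of the extracellular matrix list (left) and the lipid-associated macrophage list (right) in the 2 F-L libraries (blue) and the 2 F-H-L libraries (red), as TMM-adjusted CPM on a log axis. Most matrix genes were lowest in F-L replicate 1, while Trem2 and Lgals3 were nearly even in F-L (5.87 to 7.57 CPM and 71.0 to 80.7 CPM) and higher in both F-H-L libraries.

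Saa3, an acute-phase serum amyloid made in fat and by macrophages, stood at 0.338 and 2.42 CPM in F-L and at 42.0 and 18.8 CPM in F-H-L, a log2 difference of 6.51 ± 0.73 and 3.58 ± 0.60 (edgeR adjusted p 0.00911 and 0.0271). Ubd, a ubiquitin-like modifier induced by inflammatory cytokines, stood at 0.158 and 2.24 CPM in F-L and at 33.98 and 25.6 CPM in F-H-L, a log2 difference of 7.56 ± 0.45 and 3.66 ± 0.34 (adjusted p 0.00712 and 0.00536). In both genes all F-H-L values were above all F-L values, and both were still called under fat cell scaling. Ear2 and Rnase2a belong to the eosinophil-associated ribonucleases, a family of close copies whose reads may be shared, so their separate values are uncertain. Ear2 had 2.21 and 7.19 CPM in F-L and 59.6 and 44.0 CPM in F-H-L, and Rnase2a had 0.158 and 1.49 CPM against 21.2 and 12.8 CPM. In the F-H libraries Rnase2a had 0.022 and 0.0242 CPM, under the limit that a count of 0 allows (3 counts, 0.0661 and 0.0727 CPM), and Ear2 had 36.0 and 24.4 CPM.

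Rrad, a small GTPase of muscle and fat linked to insulin resistance, stood at 4.75 and 4.37 CPM in F-L and at 24.3 and 23.8 CPM in F-H-L, a log2 difference of 2.36 ± 0.31 and 2.38 ± 0.34 (edgeR adjusted p 0.0117 and 0.0172). Alcam, the adhesion molecule CD166, had 28.9 and 37.7 CPM in F-L and 123 and 135 CPM in F-H-L. Adam23, a membrane protein of the disintegrin family, had 16.6 and 24.6 CPM against 82.9 and 81.2 CPM, and the vesicle-trafficking GTPase Rab29 had 7.03 and 13.2 CPM against 40.1 and 38.6 CPM. In Rrad, Alcam, Adam23 and Rab29 the F-H-L libraries were within a narrow range and above F-L, and all 4 changed sign when scaled to fat cell markers. The small RNAs Rn7sk, which restrains transcription elongation, and Rn7s2, part of the protein-targeting particle, are not normally polyadenylated. Rn7sk had 57.9 and 50.4 CPM in F-L and 335 and 286 CPM in F-H-L, and Rn7s2, one of several near-identical copies and so uncertain, had 73.8 and 48.1 CPM against 813 and 463 CPM. The kappa light chain segment Igkv14-126, also one of a family of close copies, had 3.04 and 2.08 CPM in F-L and 9.67 and 20.5 CPM in F-H-L, with adjusted p of 0.0486 and 0.0469. Rn7sk (-0.61) and Igkv14-126 (-0.73) changed sign under fat cell scaling.

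**Figure D4:**
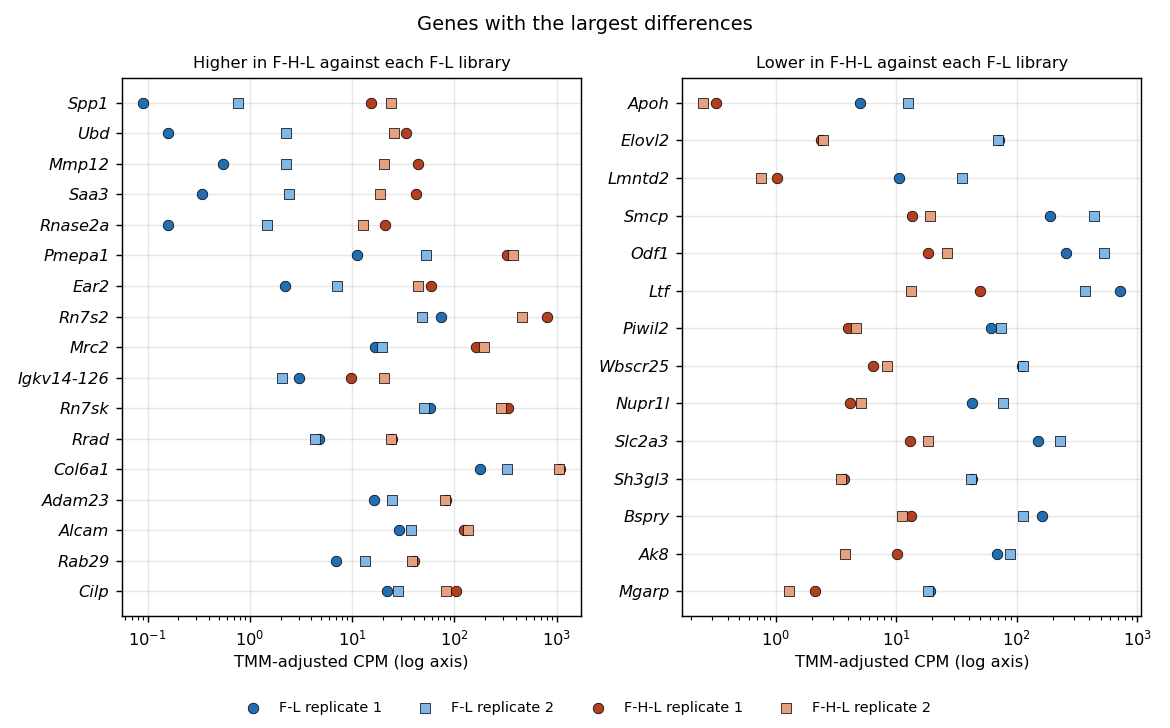
Level (TMM-adjusted CPM, log axis) of the genes with the largest differences among those called higher (left) and lower (right) against each F-L library, in the 2 F-L libraries (blue) and the 2 F-H-L libraries (red). Mrc2, Rrad, Rn7sk, Elovl2, Sh3gl3 and Mgarp were nearly even in the F-L libraries. The genes were chosen as called against each F-L library, so F-H-L values outside the F-L range follow from that choice.

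Of the 37 lists, testis germ cell markers held the most genes that were lower against each F-L library. Of 18 testis germ cell markers tested, 3 were called lower and 1 higher against F-L replicate 1, 17 lower against F-L replicate 2 and 3 (Odf1, Smcp and Tssk6) lower against both. Odf1, an outer dense fibre protein of the sperm tail, stood at 256 and 532 CPM in F-L and at 18.3 and 26.4 CPM in F-H-L. The log2 difference was -3.50 ± 0.29 against F-L replicate 1 and -4.66 ± 0.30 against F-L replicate 2 (edgeR adjusted p 0.00712 and 0.00239). Smcp, a sperm mitochondrial capsule protein, stood at 191 and 439 CPM in F-L and at 13.5 and 19.0 CPM in F-H-L, a log2 difference of -3.53 ± 0.63 and -4.84 ± 0.63 (adjusted p 0.024 and 0.0135). Both F-L libraries were high and both F-H-L libraries low. Tssk6, a testis kinase needed for sperm maturation in the mouse, had 30.6 and 134 CPM in F-L and 3.45 and 4.55 CPM in F-H-L. The summed level of the 18 markers was 817 and 7366 CPM in F-L and 198 and 213 CPM in F-H-L, and its part in the other falls was not tested.

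Elovl2, which elongates very long polyunsaturated fatty acids and is needed for sperm formation in the mouse, had nearly the same level in the F-L libraries. It stood at 72.1 and 70.2 CPM in F-L and at 2.40 and 2.46 CPM in F-H-L. The log2 difference was -4.87 ± 0.33 against F-L replicate 1 and -4.93 ± 0.35 against F-L replicate 2 (edgeR adjusted p 0.00712 and 0.0029). The F-L libraries were level, and the F-H-L libraries were level far below them. In the F-H libraries Elovl2 had 0.286 and 0.194 CPM. The part of tract tissue in this fall was not tested. The gene lies at chr13:41182382-41220403 on the minus strand, and its promoter window (chr13:41220354-41220653, GRCm38.p6, RefSeq, 250 bases before to 50 after the start) is shown because this gene ranked first of the 268 in the edgeR fit to all libraries, where its adjusted p was 0.274.
Elovl2: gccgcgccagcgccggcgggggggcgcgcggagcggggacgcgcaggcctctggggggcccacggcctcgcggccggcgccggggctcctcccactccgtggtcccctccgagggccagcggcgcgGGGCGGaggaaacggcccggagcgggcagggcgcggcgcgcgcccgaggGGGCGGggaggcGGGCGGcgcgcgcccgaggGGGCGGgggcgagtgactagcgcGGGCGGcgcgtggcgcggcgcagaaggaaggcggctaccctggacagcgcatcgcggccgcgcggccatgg
The window held 5 GC boxes (GGGCGG, in capitals) at 124, 75, 63, 44 and 21 bases before the start, and no CCAAT or TATAAA on either strand.

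Piwil2, a germ line protein that binds small RNAs to silence transposons, stood at 61.6 and 74.4 CPM in F-L and at 3.97 and 4.63 CPM in F-H-L, a log2 difference of -3.82 ± 0.30 and -4.19 ± 0.29 (edgeR adjusted p 0.00712 and 0.00287). Slc2a3, the glucose transporter GLUT3 of neurons and sperm, stood at 150 and 229 CPM in F-L and at 13.1 and 18.5 CPM in F-H-L, a log2 difference of -3.22 ± 0.29 and -3.94 ± 0.28 (adjusted p 0.00712 and 0.00295). For both genes the F-L libraries were close to each other and the F-H-L libraries were far below. Sh3gl3, an endophilin of brain and testis, had 42.6 and 42.2 CPM in F-L and 3.72 and 3.47 CPM in F-H-L. Ak8, an adenylate kinase, had 68.4 and 87.5 CPM against 10.2 and 3.80 CPM. The mitochondrial protein gene Mgarp had 19.1 and 18.6 CPM against 2.12 and 1.28 CPM, and Bspry, Nupr1l, Lmntd2 and the long noncoding RNA Wbscr25 were called in the same direction, with log2 differences from -3.19 to -5.38 over both fits.

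Cyp17a1, the steroid hydroxylase that Leydig cells need for androgen synthesis, stood at 283 and 155 CPM in F-L and at 26.2 and 18.1 CPM in F-H-L, a log2 difference of -3.65 ± 0.40 and -2.88 ± 0.40 (edgeR adjusted p 0.0091 and 0.0168). It was the 1 gene of 9 Leydig cell genes tested that was called lower against both. Cyp11a1, the first enzyme of steroid synthesis, had 0.608 and 73.9 CPM in F-L and 2.58 and 1.01 CPM in F-H-L, so F-H-L was below F-L replicate 2 and above F-L replicate 1. In F-L replicate 1 the Leydig list had 13190 counts, 12567 of them from Cyp17a1, and Hsd3b1 and Hsd3b6 were at 0. Which cells Cyp17a1 came from in that library was not tested. Ltf, the iron-binding protein lactoferrin of secretions and neutrophils, stood at 726 and 372 CPM in F-L and at 49.99 and 13.3 CPM in F-H-L, a log2 difference of -4.49 ± 0.77 and -3.62 ± 0.74 (adjusted p 0.0218 and 0.0464). Apoh, a phospholipid-binding plasma protein made in liver, had 5.07 and 12.6 CPM in F-L and 0.319 and 0.251 CPM in F-H-L. The groups did not overlap for Cyp17a1, Ltf or Apoh.

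A further 3 falls were picked after their values had been seen. Npy, the neuropeptide Y, stood at 1039 and 210 CPM in F-L and at 59.8 and 50.4 CPM in F-H-L, a log2 difference of -4.21 ± 0.38 and -2.01 ± 0.36 (edgeR adjusted p 0.00728 and 0.033). Enpp1, a membrane phosphodiesterase, had 267 and 45.4 CPM in F-L and 18.1 and 19.8 CPM in F-H-L. Both were highest in the epididymis-rich library. Odc1, the first enzyme of polyamine synthesis, had 287 and 212 CPM in F-L and 120 and 117 CPM in F-H-L, a log2 difference of -1.25 ± 0.19 and -0.92 ± 0.19 (adjusted p 0.0161 and 0.047).

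Cholesterol synthesis was the metabolic list with genes that were lower against both. Of 21 genes tested, 7 were called higher and 5 lower against F-L replicate 1, and 0 higher and 2 lower against F-L replicate 2, with medians of 0.35 and 0.54. Fdft1, squalene synthase, was lower against both and stood at 146 and 157 CPM in F-L and at 41.7 and 38.6 CPM in F-H-L, a log2 difference of -1.84 ± 0.26 and -2.04 ± 0.26 (edgeR adjusted p 0.0132 and 0.0129). The F-L libraries were close together and above both F-H-L libraries. Insig1, which retains the sterol sensor in the endoplasmic reticulum, had 140 and 187 CPM in F-L and 797 and 565 CPM in F-H-L, with adjusted p of 0.0283 and 0.0617, so the list held genes of opposite direction. Insig1 changed sign when scaled to fat cell markers (-0.81). Fdft1 was called lower again under that scaling, which moved most genes down and so is no check of a fall.

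For fat cell genes the number called depended on the F-L library. Of 22 fat cell identity and hormone genes tested, 19 were called higher against F-L replicate 1 and 1, Mrap, against F-L replicate 2, and 0 were lower in either fit. The list median was 4.15 against F-L replicate 1 and 0.85 against F-L replicate 2. Mrap, the partner protein of melanocortin receptors, had 10.3 and 81.2 CPM in F-L and 256 and 320 CPM in F-H-L, a log2 difference of 4.83 ± 0.37 and 1.75 ± 0.30 (edgeR adjusted p 0.00712 and 0.0302). The leptin gene Lep had 93.7 and 1018 CPM in F-L and 2893 and 2640 CPM in F-H-L, with an adjusted p of 0.0107 against F-L replicate 1 and 0.156 against F-L replicate 2. The adiponectin gene Adipoq had 112 and 1357 CPM in F-L and 2078 and 1905 CPM in F-H-L, with adjusted p of 0.00915 and 0.473. Pparg, the nuclear receptor that drives fat cell differentiation, had 13.8 and 88.0 CPM against 193 and 184 CPM, with adjusted p of 0.00712 and 0.0509. Both F-H-L libraries were above both F-L libraries for all 4 genes, and the gap was wider to the epididymis-rich library. For Mrap this follows from its choice as called against both. Lep, Adipoq and Pparg were not called against F-L replicate 2, and 2 libraries a group can separate by chance. Scaled to the list itself Adipoq had a difference of -0.062 in the fit to all libraries.

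Of 24 fatty acid and triglyceride synthesis genes tested, 15 were called higher and 1 lower against F-L replicate 1, and 1 higher and 1 lower against F-L replicate 2, with medians of 2.62 and 0.43. Agpat2, which makes phosphatidic acid for triglyceride, was the gene higher against both, at 66.1 and 210 CPM in F-L and 600 and 790 CPM in F-H-L, a log2 difference of 3.42 ± 0.33 and 1.65 ± 0.29 (edgeR adjusted p 0.00755 and 0.0313). Fasn, fatty acid synthase, had 731 and 2730 CPM in F-L and 5082 and 3944 CPM in F-H-L, with adjusted p of 0.0136 and 0.273. Scd1, the stearoyl-CoA desaturase, had 1614 and 17448 CPM in F-L and 38153 and 34522 CPM in F-H-L, with adjusted p of 0.0095 and 0.208. F-L replicate 1 was again far below the other libraries, and Fasn changed sign when scaled to fat cell markers (-0.80). Pck1, which makes glycerol phosphate for triglyceride and was picked after its values had been seen, was called in opposite directions: it had 27.2 and 802 CPM in F-L and 269 and 239 CPM in F-H-L, a log2 difference of 3.25 ± 0.35 against F-L replicate 1 and -1.74 ± 0.28 against F-L replicate 2 (adjusted p 0.0087 and 0.0253).

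Of 16 lipolysis genes tested, 12 were called higher against F-L replicate 1 and 1, G0s2, against F-L replicate 2. G0s2, the inhibitor of the fat cell triglyceride lipase, had 42.5 and 131 CPM in F-L and 329 and 531 CPM in F-H-L, a log2 difference of 3.36 ± 0.39 and 1.63 ± 0.34 (edgeR adjusted p 0.00945 and 0.0493). Of 20 fatty acid oxidation genes tested, 15 were called higher against F-L replicate 1 and 2, the acyl-CoA dehydrogenase genes Acadl and Acads, against F-L replicate 2, with medians of 1.80 and 0.88. Acadl had 21.1 and 109 CPM in F-L and 255 and 266 CPM in F-H-L, and Acads had 27.1 and 70.7 CPM against 148 and 181 CPM. No gene of either list was called lower, and G0s2 (-0.049) and Acads (-0.71) changed sign when scaled to fat cell markers. Igf1, the insulin-like growth factor, picked after its values had been seen, had 38.0 and 129 CPM in F-L and 297 and 307 CPM in F-H-L, with edgeR adjusted p of 0.00712 and 0.0429 and a change of sign under that scaling (-0.41).

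Of 14 genes of fat cell expansion tested in the fit to all libraries, and 15 in each of the others, 13 were called higher against F-L replicate 1 and 0 against F-L replicate 2, with medians of 3.98 and 1.0004. Mest, an imprinted gene that marks fat cell enlargement, had 15.9 and 107 CPM in F-L and 531 and 453 CPM in F-H-L, a log2 difference of 4.98 ± 0.90 and 2.13 ± 0.74 (edgeR adjusted p 0.0249 and 0.151). The imprinted gene Peg3 had 9.03 and 31.6 CPM against 132 and 149 CPM, with adjusted p of 0.026 and 0.116, and Sfrp5, a secreted Wnt inhibitor of fat, had 6.85 and 121 CPM against 198 and 218 CPM, with adjusted p of 0.0123 and 0.437. The groups did not overlap in these 3 genes, which 2 libraries a group can show by chance, and the differences from F-L replicate 2 missed the threshold. Of the thermogenic genes 4 of 16 tested were called higher against F-L replicate 1 and 0 of 15 against F-L replicate 2. Ucp1, the uncoupling protein of heat production, had 4 and 3 counts in F-L and 1 and 1 in F-H-L, too few to compare.

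Genes of the reproductive tract beyond sperm genes differed by F-L library. Of 22 epididymis markers tested against F-L replicate 1, 4 were called lower, and of 21 tested against F-L replicate 2 none was called, with medians of -3.25 and -0.63. Crisp1, a sperm-coating protein of the epididymis, had 10543 and 2502 CPM in F-L and 1269 and 1082 CPM in F-H-L, with edgeR adjusted p of 0.342 and 0.747. Lcn12, an epididymal lipocalin, had 64.2 and 11.2 CPM in F-L and 4.93 and 4.25 CPM in F-H-L, with adjusted p of 0.0182 and 0.359. Prm2, a protamine that packs sperm DNA, had 103 and 1371 CPM in F-L and 30.6 and 37.5 CPM in F-H-L, with adjusted p of 0.209 and 0.0165. Of the F-L and F-H-L libraries, those of F-H-L were the lowest in all 3 genes, which 2 libraries a group can show by chance. The wider gap was to the F-L library rich in that tissue. The F-H libraries, which set part of the error, were unlike each other in epididymis markers, with Crisp1 at 2.53 and 391 CPM. Missing calls among epididymis markers therefore do not show that their levels were alike, and the number called is not comparable with that of the sperm genes.

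In all, 23 genes were called in opposite directions, higher in F-H-L than in F-L replicate 1 and lower than in F-L replicate 2. Ccnb2, a cyclin of mitosis that was picked after its values had been seen, had 1.42 and 49.8 CPM in F-L and 8.49 and 9.003 CPM in F-H-L, a log2 difference of 2.64 ± 0.44 and -2.59 ± 0.29 (edgeR adjusted p 0.0205 and 0.0086). By that choice, F-H-L lay between the F-L libraries for each of the 23 genes. Of 19 proliferation genes tested, 10 were called higher against F-L replicate 1 and 5 lower against F-L replicate 2, with medians of 2.64 and -0.02.

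Across the 37 gene lists, 28 had a median above 0 against each F-L library and 2, the testis and epididymis markers, had a median below 0 against each. The remaining lists changed sign with the F-L library used: Leydig, Sertoli, multiciliated, mesothelial, smooth muscle and pericyte genes, proliferation genes and endoplasmic reticulum stress genes. Scaling to fat cell markers moved 32 of the 37 list medians in the fit to all libraries by more than 1 SD over pairs of libraries.

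**Figure D5:**
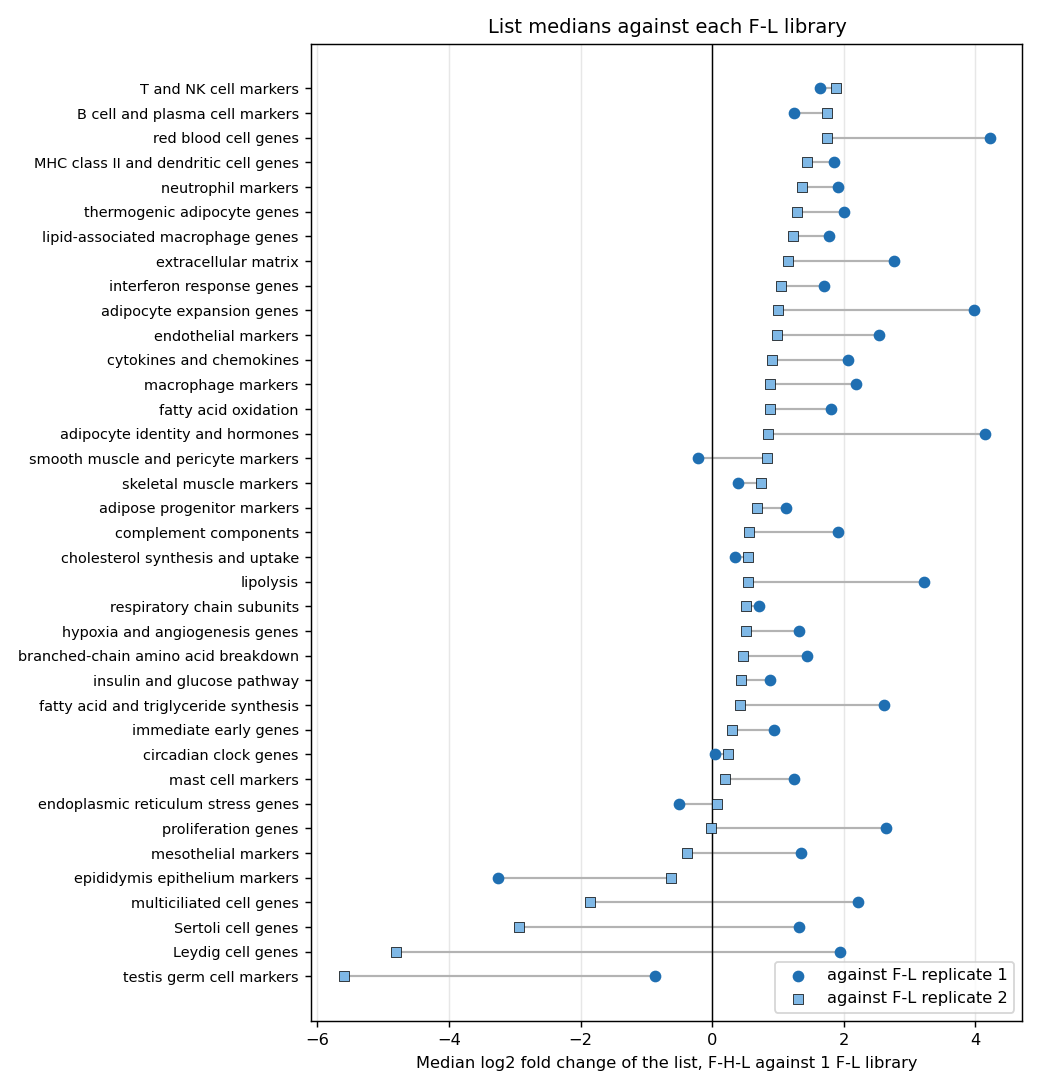
Median log2 difference of each of the 37 gene lists for F-H-L against F-L replicate 1 (circles) and F-L replicate 2 (squares), with a grey line joining the values of a list. The extracellular matrix list lay at 2.77 and 1.15 and the lipid-associated macrophage list at 1.77 and 1.22, while the testis list lay at -0.87 and -5.60.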

How the data were processed

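RNA from the epididymal fat of mice was extracted with Trizol, made into TruSeq libraries and sequenced on an Illumina HiSeq instrument, per the labels' protocols. Raw whole-number counts, 1 column for each library, are deposited for every gene. The same table gives the authors' RPKM values, which scale counts by gene length and library total, and the deposited gene length itself. The submitters' processing notes name HISAT2 2.1.0, HTSeq, bcl2fastq and mm10 with no roles. No source used here gives the strand setting or the annotation release, so overlapping and antisense genes cannot be told apart. The table has 48897 genes, and 27 symbols that appeared as dates were looked up again by Entrez ID. RefSeq held 39064 of the 40020 Entrez IDs, and 99.8% of these lay on the same chromosome with starts within 500 kb. Plin2 was not analysed here.

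The tools were edgeR 4.0.16 (filterByExpr, TMM, quasi-likelihood test, two-sided), limma 3.58.1 and DESeq2 1.42.0 under R 4.3.3. Figures were drawn with matplotlib 3.10.9 under Python 3.11.15, with numpy 2.4.6 and pandas 2.3.3. The fit to all 6 libraries had a term per group, 3 residual degrees of freedom and a biological coefficient of variation of 0.631. Fits against 1 F-L library used 5 libraries. Adjusted p is by Benjamini-Hochberg over all genes of a fit and was called under 0.05. The SE of a log2 difference was taken as its absolute value divided by the root of the F statistic. A count of 0 allows 0.0537 to 0.0754 CPM (3 counts). Chi-square over its degrees of freedom between libraries of a group was 710.1 (F-L), 226.2 (F-H) and 59.62 (F-H-L), above counting noise, so each library was counted as 1 sample. The scripts were tested on simulated counts.

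The members and the 37 lists (593 distinct genes found of 598) were chosen with earlier results of these data known. The genes named were, first, the 10 rises and 10 falls whose smaller difference was largest among genes called against each F-L library, second, the 10 largest of each among those within 2-fold in F-L, in both cases with an RPKM of at least 5 averaged over a group. Added to these were the 3 members of each list with the smallest p and a fixed set that includes Adipoq, Lep and Trem2. Some genes that met this rule are not reported here, and those named outside it were picked after their values had been seen. The rule also covered genes called with all libraries, of which there were none. Deviations from group means of equally numbered libraries correlated at 0.0244 (F-L with F-H), -0.138 (F-L with F-H-L) and -0.0189 (F-H with F-H-L). The F-L libraries differed widely in tract and fat cell markers, so these values cannot show whether libraries were paired. Promoter windows came from a RefSeq table of GRCm38.p6, which held 208 of the 268 genes called against each F-L library. Alternatives were other filters, scalings, tools and units, a replicate block and leaving out each library.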

Additional observations from a re-analysis of the deposited data

How the results depend on the processing

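With all libraries, the count of 0 genes at an adjusted p under 0.05 became 3910 with no low-count filter (1288 higher, 2622 lower), 2444 with DESeq2 and 6626 when libraries were scaled to fat cell markers (6 higher, 6620 lower). It remained 0 with an RPKM of at least 5, median-ratio factors, robust empirical Bayes, limma on log2(RPKM + 1) and log2(RPKM + 0.1), and the 4 libraries alone. Leaving out 1 library gave 0 to 3508, and the nonzero counts were the fits against 1 F-L library. A replicate block gave 0 (2889 genes at an unadjusted p under 0.05), as did a block with the F-H-L numbers crossed, added after the data were seen (3062). The block changed the sign or call of none of the 95 genes followed.

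Against F-L replicate 1 the count of 3508 became 6570 with no filter, 6229 with DESeq2 and 19467 scaled to fat cell markers. Against F-L replicate 2 the count of 2084 became 5646, 4212 and 4692. The count of 268 became 1547, 1215 and 3048. Leaving out 1 F-H-L library gave 0 to 0 in each of these, with 4084 and 4369 genes at an unadjusted p under 0.05 against F-L replicate 1 and 3596 and 3320 against F-L replicate 2. These fits have 1 library in each arm, and the cause of the other shifts was not tested.

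Scaling to fat cell markers moved the median of all genes to -3.16 with all libraries and turned the sign of 37 of the 95 genes followed: Rn7sk -0.61, Rrad -0.70, Igkv14-126 -0.73, Col6a1 -0.60, Adam23 -0.83, Alcam -0.96, Cilp -0.997, Rab29 -0.71, Col6a2 -0.050, Postn -0.66, Col1a1 -1.60, Col5a1 -0.23, Col6a3 -0.39, Trem2 -1.46, Lgals3 -1.75, Cd68 -1.03, Tyrobp -0.97, Adgre1 -0.96, Gpd1 -0.49, Slc2a4 -0.61, Adipoq -0.062, Dgat1 -0.59, Slc25a1 -0.19, Fasn -0.80, Insig1 -0.81, G0s2 -0.049, Mgll -1.31, Acads -0.71, Cpt1a -1.45, Cfb -0.38, H2-DMb1 -0.41, Rsad2 -0.42, Eng -0.82, Plod1 -0.58, P3h1 -0.69, Hspg2 -0.037 and Igf1 -0.41. None of these 37 genes was called under that scaling, with edgeR adjusted p from 0.311 (Lgals3) to 0.983 (Hspg2). Leaving out 1 library gave -5.43 to 1.58 for Cyp11a1, -1.74 to 3.25 for Pck1 and -2.59 to 2.64 for Ccnb2, positive without F-L replicate 2, and Pck1 was also positive with limma on log2(RPKM + 1) and log2(RPKM + 0.1) (0.47 and 0.51). Counts under 10 in an F-L library (Spp1, Ubd, Rnase2a and Ucp1) leave wide counting error. Of the 37 list medians, fat cell scaling moved 32 by more than their SD over pairs of libraries (extracellular matrix from 1.79 to -0.61, lipid-associated macrophage genes from 1.54 to -1.34, macrophage markers from 1.30 to -1.26), leaving out F-L replicate 2 moved 24 and F-L replicate 1 moved 4, limma with + 1 moved 11 and with + 0.1 moved 7, the RPKM minimum moved 5, leaving out F-H-L replicate 1 moved 2, and F-H-L replicate 2 and each block moved 1.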

Other observations

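The lists of T and NK cells, B and plasma cells, neutrophils, MHC class II and interferon response genes had positive medians against each F-L library and no gene called against both. T and NK cell markers had medians of 1.63 and 1.88, and B cell and plasma cell markers had 1.24 and 1.75. The T cell receptor gene Trac had 0.743 and 0.644 CPM in F-L and 7.51 and 4.40 CPM in F-H-L, and it was called against neither F-L library. The B cell receptor gene Ighd had 0.383 and 0.465 CPM in F-L and 3.13 and 4.48 CPM in F-H-L, and it was called against F-L replicate 1 only. The groups overlapped in neither Trac nor Ighd, which 2 libraries a group can show by chance. S100a8, a neutrophil calcium-binding protein, had 0.405 and 1.91 CPM in F-L and 22.0 and 20.5 CPM in F-H-L, with edgeR adjusted p of 0.0154 and 0.0548. H2-DMb1, which loads peptides onto MHC class II, had 7.41 and 12.5 CPM in F-L and 57.0 and 42.2 CPM in F-H-L. Rsad2, an interferon-induced antiviral protein, had 5.74 and 13.8 CPM against 45.3 and 36.7 CPM. H2-DMb1 was called against neither F-L library, and Rsad2 was called against F-L replicate 1 only. Both of these changed sign when scaled to fat cell markers.

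Cfb, complement factor B, was the 1 gene of 16 complement components called against both F-L libraries, at 45.6 and 152 CPM in F-L and 390 and 346 CPM in F-H-L (edgeR adjusted p 0.00712 and 0.0432; -0.38 when scaled to fat cell markers). Endothelial markers had 8 of 12 called higher against F-L replicate 1 and 0 against F-L replicate 2. The haemoglobin gene Hbb-bs, whose close copies may share reads, had 71.7 and 340 CPM in F-L and 544 and 2108 CPM in F-H-L. F-H-L replicate 1 lay closer to F-L replicate 2 than to F-H-L replicate 2.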
